A study of Xenopus laevis with 8 samples.

Results

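Cholesterol is built from acetyl-CoA in 2 stages. In the mevalonate stage, HMG-CoA synthase makes the substrate of HMG-CoA reductase, and later enzymes make isopentenyl and farnesyl diphosphate; in the sterol stage, farnesyl diphosphate becomes squalene and then lanosterol, whose ring system is trimmed and reduced to cholesterol. When sterols in the endoplasmic reticulum run low, the transcription factor SREBP2 is released from its anchor proteins and raises transcription of most of these enzymes. The pathway touches the developing limb through Sonic hedgehog (SHH), which carries a cholesterol group and signals through Smoothened, a membrane protein that binds sterols, and human mutations in DHCR7 cause a malformation syndrome that includes fused toes.

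The genes described here are 5 enzyme genes of this pathway in *Xenopus laevis* hindlimb buds: hmgcs1.L, idi1.L, fdps.S, cyp51a1.L and dhcr7.S. They were chosen by their measured difference between cyclopamine and ethanol on these same 8 arrays, so that the values of that comparison are given as a description with no test. Every probe set (the group of short oligonucleotides that gives 1 value on an Affymetrix array) with 1 of these symbols in the array annotation was taken, which gave 7 of 15491 probe sets that are not controls (5 of 7531 symbols). hmgcs1.L had 3 of them and the other genes 1 each. This frog is an allotetraploid, whose gene copies on the long and short chromosomes are written .L and .S, and the 5 other copies (hmgcs1.S, idi1.S, fdps.L, cyp51a1.S and dhcr7.L) had no probe set of their own in the annotation and were not analysed here.

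Tadpoles with limb buds, at stage 52, spent 24 h in water with cyclopamine, a plant steroidal alkaloid that binds Smoothened, at 1 μg/ml in ethanol, or with the same volume of ethanol alone, the vehicle control. Each array holds RNA (3 μg) from 1 pool of 18 to 22 whole hindlimb buds, with 4 ethanol and 4 cyclopamine arrays in 4 pairs that share their clutch, day of exposure and extraction batch. Clutch A supplied pairs 1 and 2, and clutch B supplied pairs 3 and 4. No strain, sex or genetic change is given for the animals, the whole tadpole was exposed, and a bud holds several tissues, so that a higher value from more cells of a type cannot be told apart from one from more RNA per cell. The deposited intensities are on a linear scale. They were quantile-normalized, raised to a floor of 43.7 (the 20th percentile over all arrays) where lower, and given as log2, so that a difference of 1 is a doubling. 13949 probe sets above the floor on at least 1 array were tested, and all 7 of the sterol enzymes were above it on all 8 arrays. Levels of different probe sets cannot be compared, and only differences are set side by side.

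The pools carried hindlimb transcripts. pitx1.L, a hindlimb identity gene, had mean log2 levels of 11.37 in ethanol and 11.52 after cyclopamine. The forelimb gene tbx5.S was at the floor on all 4 ethanol arrays and 3 of 4 cyclopamine arrays. A probe set at the floor does not show that a transcript is absent. For tbx4.L, of the same list, 1 probe set had means of 7.78 in ethanol and 7.88 after cyclopamine. Another was at the floor on 3 of 4 arrays in each group. No gene of a liver and fat list of 6 genes, tissues of active sterol synthesis, had a probe set of 1 symbol above the floor on any array. Whether these genes had a probe set on the array at all was not counted, so that absence of liver or fat RNA is not shown. For the other 7 tissue lists (limb mesenchyme, epidermis, cartilage, muscle, blood, nerve and glia, and endothelium), the ranges of the summed intensity in the groups overlapped. The cartilage sum, over 5 of 8 listed genes, was 3412 to 4635 in ethanol and 3811 to 7325 after cyclopamine, with the highest value on cyclopamine array 4. That array also had the highest limb mesenchyme and endothelium sums (9779 and 1853) and the lowest epidermis sum (5031). Its muscle, blood, and nerve and glia sums were neither the highest nor the lowest. The muscle sum, over 8 of 11 genes, was 2884 to 11283 in ethanol and 3435 to 11998 after cyclopamine. hoxd13.S of the limb mesenchyme list had mean log2 levels of 10.42 in ethanol and 9.84 after cyclopamine (unadjusted p = 0.0140 in limma). Near the floor, mbp.S of the nerve and glia list had 5.81 and 5.52 (unadjusted p = 0.0201 in limma). No other probe set of the 7 lists was under an unadjusted p of 0.05, where 2.37% of all probe sets tested were higher and 3.79% lower. The part of tissue makeup in the sterol enzyme values was not tested.

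All 7 probe sets had higher values after cyclopamine, along the pathway from HMG-CoA synthase to 7-dehydrocholesterol reductase, by amounts from 1.27-fold for dhcr7.S to 2.96-fold for a probe set of hmgcs1.L. In each of the 7, the 4 cyclopamine arrays all lay above the 4 ethanol arrays, a pattern found in 1.24% of all probe sets tested, and each was higher in 4 of 4 pairs, as were 6.56% of all. These counts follow from the choice of the genes on this comparison. Over all probe sets, 2 of 13949 (0.0143%) passed an adjusted p of 0.05 between cyclopamine and ethanol in limma.

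hmgcs1.L encodes the cytosolic HMG-CoA synthase, which joins acetoacetyl-CoA and acetyl-CoA at the head of the mevalonate stage. Its first probe set (ending _at) had log2 levels of 9.09, 9.49, 8.46 and 8.87 on ethanol arrays 1 to 4. After cyclopamine the levels were 10.45, 10.61, 10.13 and 10.06 in the same order. The lowest cyclopamine array stood 0.57 above the highest ethanol array. The means were 8.98 ± 0.43 and 10.31 ± 0.26 (SD, n = 4 arrays each), a log2 difference of 1.34 (standard error 0.23) or 2.52-fold. Standard errors here and below come from limma, which moderates the variance across probe sets, in a fit that leaves out the pairs.

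The second probe set was designed on the same sequence record, and the ending _x_at marks oligonucleotides that may also bind other transcripts. It had log2 levels of 9.27, 9.44, 8.66 and 8.76 in ethanol and 10.38, 10.59, 10.30 and 10.02 after cyclopamine. Its groups did not overlap either, and the log2 difference was 1.29 (standard error 0.21).

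The third probe set of hmgcs1.L comes from another sequence record. It had log2 levels of 10.88, 10.72, 10.10 and 10.23 in ethanol and 12.17, 12.22, 11.86 and 11.95 after cyclopamine. The gap between the groups was 0.98, and the log2 difference of 1.57 (standard error 0.19), or 2.96-fold, was the largest of the 7. The ending _s_at marks oligonucleotides shared by several transcripts, so that a part of the signal from the other copy of the gene cannot be told apart from that of hmgcs1.L. As the first and second of these probe sets share a record, the 3 are not independent readings of the gene.

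idi1.L encodes isopentenyl diphosphate isomerase, which interconverts the isoprenoid units with 5 carbons. Its log2 level was 6.80, 6.54, 6.32 and 6.41 on ethanol arrays 1 to 4 and 7.48, 7.68, 7.42 and 7.12 on the cyclopamine arrays. The lowest cyclopamine array stood 0.32 above the highest ethanol array. The means were 6.52 ± 0.21 and 7.43 ± 0.23 (SD, n = 4 arrays each), a log2 difference of 0.91 (standard error 0.15) or 1.88-fold.

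fdps.S encodes farnesyl diphosphate synthase, whose product feeds sterols as well as prenylated proteins, dolichol and ubiquinone. Its ethanol levels were 10.77, 10.88, 10.22 and 10.65 on the log2 scale, and its cyclopamine levels were 11.49, 11.47, 11.56 and 11.54. The 4 cyclopamine arrays lay within 0.092 of each other, and the 4 ethanol arrays within 0.65. The log2 difference was 0.88 (standard error 0.14), or 1.85-fold.

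cyp51a1.L encodes lanosterol 14α-demethylase, the cytochrome P450 that begins the trimming of lanosterol. Its log2 level was 10.44, 10.80, 9.17 and 10.18 on ethanol arrays 1 to 4. After cyclopamine it was 11.29, 11.29, 11.29 and 11.07. Ethanol array 3 was the lowest by about 1 log2 unit, and the cyclopamine arrays differed from each other by no more than 0.22. The log2 difference was 1.09 (standard error 0.31), or 2.13-fold, and without ethanol array 3 it was 0.76.

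dhcr7.S encodes 7-dehydrocholesterol reductase, which makes cholesterol in the final step of 1 of the branches of the pathway. It had log2 levels of 11.39, 11.30, 11.18 and 10.93 in ethanol and 11.59, 11.45, 11.47 and 11.68 after cyclopamine. The groups did not overlap, but the gap was only 0.062. The log2 difference of 0.35 (standard error 0.12), or 1.27-fold, was the smallest of the 7.

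**Figure D1:**
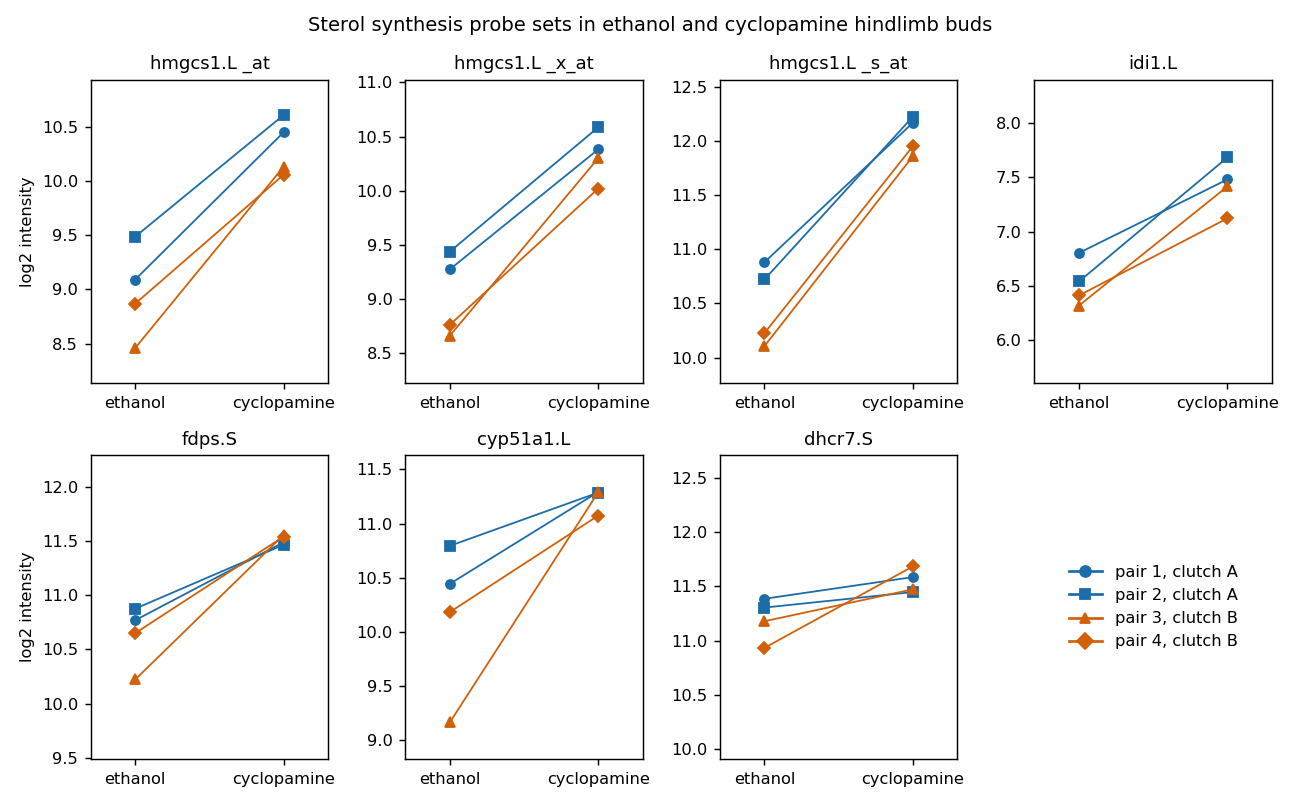
Log2 intensity (vertical axis, 2.8 log2 units in each panel) of the 7 probe sets on the ethanol and cyclopamine arrays. Lines join the arrays of a pair (blue for clutch A, orange for clutch B), and every line runs upward. The mean rise is largest for the 3 probe sets of hmgcs1.L and smallest for dhcr7.S. The steepest single line is that of cyp51a1.L in pair 3.

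Within pairs, the order of the genes was partly shared. With its 3 probe sets averaged, hmgcs1.L had the largest log2 difference of the 5 genes in 3 of 4 pairs, at 1.25, 1.26, 1.69 and 1.39 in pairs 1 to 4. The exception was pair 3, where cyp51a1.L stood at 2.12, or 4.36-fold. The rank in pair 2 rests on the averaging. There the 3 probe sets of hmgcs1.L stood at 1.12, 1.15 and 1.50, and idi1.L, at 1.14, was above the first of them. dhcr7.S had the smallest in 3 of 4 pairs, at 0.20, 0.14 and 0.29 in pairs 1 to 3. In pair 4 it reached 0.75, and idi1.L had the smallest value, 0.71. The log2 difference of hmgcs1.L exceeded that of dhcr7.S by 1.05, 1.11, 1.39 and 0.64 in pairs 1 to 4. The genes in between changed places, with idi1.L at 0.68 to 1.14, fdps.S at 0.59 to 1.33 and cyp51a1.L at 0.49 to 2.12. Their ranges over the pairs overlapped, so that no order among these 3 can be read.

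**Figure D2:**
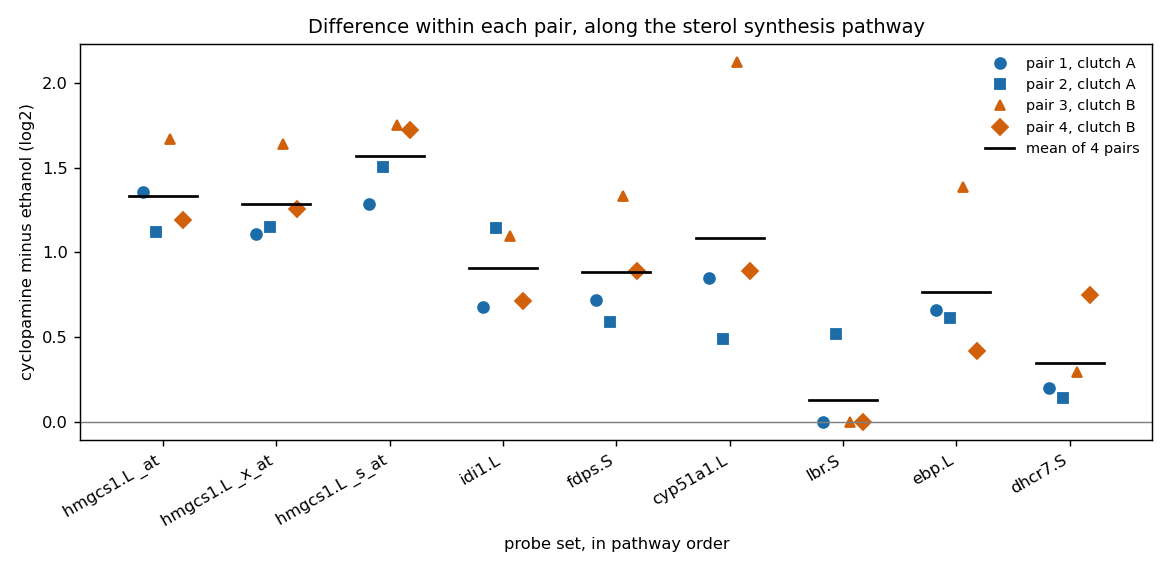
Log2 difference between the cyclopamine and the ethanol array of each pair (points; blue, clutch A; orange, clutch B) and the mean of the 4 pairs (bar), for the 7 probe sets and for lbr.S and ebp.L, in pathway order. Pair 3 has the highest point for hmgcs1.L, fdps.S, cyp51a1.L and ebp.L, and lbr.S lies at 0 in 3 pairs because both of its arrays were at the floor.

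Only 2 further genes of the mevalonate and sterol stages, ebp.L and lbr.S, had a probe set of 1 symbol on the array under the symbols searched. Of 9 genes listed for the mevalonate stage 3 were measured, and of 14 for the sterol stage 4 were measured. ebp.L encodes the sterol isomerase that acts between CYP51 and DHCR7, and it was not among the genes chosen. It had log2 levels of 8.73, 9.18, 7.64 and 8.38 in ethanol and 9.40, 9.79, 9.03 and 8.79 after cyclopamine. It was higher in 4 of 4 pairs and its groups overlapped. The log2 difference of 0.77 (standard error 0.34), or 1.70-fold, did not pass the test, with an unadjusted p of 0.0544 and an adjusted p of 0.828 in limma. With the pair as a block the unadjusted p was 0.0069 and the adjusted p 0.533 in limma. lbr.S, which encodes a nuclear envelope protein with sterol reductase activity, was above the floor only on ethanol array 2 and cyclopamine array 2, so that its difference cannot be read.

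The genes around the pathway had differences of both signs. Of 28 other probe sets in the 6 lists (24 genes, with .L and .S copies counted together, of sterol synthesis, sterol sensing, cholesterol uptake, transport and storage, the non-sterol isoprenoid branch and acetyl-CoA supply), 2 had higher and 1 had lower values with an unadjusted p under 0.05, where 2.37% of all probe sets tested were higher and 3.79% lower. None passed the adjusted threshold in limma. 16 lay above 0 and 12 below. Their median log2 difference was 0.07, against 0.0013 over all probe sets tested, but it had no stable sign, at −0.0090 without cyclopamine array 2, 0.016 without cyclopamine array 3, 0.11 without ethanol array 4 and 0.13 without cyclopamine array 4.

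acly.S, which encodes ATP citrate lyase, the cytosolic source of acetyl-CoA, was 1 of the 2 that were higher. It had log2 levels of 10.58, 10.30, 10.50 and 10.11 in ethanol and 10.68, 10.80, 10.97 and 11.06 after cyclopamine. It was higher in 4 of 4 pairs and the groups did not overlap. The log2 difference was 0.50 (standard error 0.14), with an adjusted p of 0.600 in limma. In the same list, acat1.S and slc25a1.L had log2 differences of 0.21 and 0.24, about the size of their standard errors (0.20 and 0.27).

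npc2.S, which encodes the lysosomal protein that hands cholesterol to NPC1, was the other. It had 10.50, 10.70, 10.59 and 10.98 in ethanol and 11.02, 11.19, 11.10 and 10.81 after cyclopamine, so that it was higher in pairs 1 to 3 and lower in pair 4. The log2 difference was 0.34 (standard error 0.13, adjusted p = 0.762 in limma), and with the pair as a block it was no longer under an unadjusted p of 0.05, at 0.0739. The count of 2 was the same with that block, but it was then made up of acly.S and ebp.L. The other copy of npc2, npc2.L, had a difference of 0.26 (standard error 0.12) and was above an unadjusted p of 0.05.

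vldlr.S, which encodes a lipoprotein receptor, was the 1 that was lower. It had 7.44, 6.92, 7.32 and 7.12 in ethanol and 6.64, 6.76, 6.84 and 6.64 after cyclopamine. It was lower in 4 of 4 pairs without overlap of the groups, and the log2 difference was −0.48 (standard error 0.13, adjusted p = 0.600 in limma). scarb2.L, the next lower of this list by p, stood at −0.07 (standard error 0.14), and its other copy scarb2.S at 0.19 (standard error 0.20). Of 17 genes listed for cholesterol uptake, transport and storage 9 were measured, and ldlr was not among them.

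Of 14 genes listed for sterol sensing 5 were measured. srebf1, srebf2, insig1 and insig2 had no probe set of 1 symbol on the array under the symbols searched. They were therefore not measured, and most of this list is unknown. Of the 5 sterol sensing probe sets, none was under an unadjusted p of 0.05. With 2.37% of all probe sets tested higher and 3.79% lower at that p, none of 5 says little of this list. scap.S, which encodes the escort protein of SREBP, had a log2 difference of −0.35 (standard error 0.16) and was lower in pairs 1, 3 and 4 and higher in pair 2. rnf139.L, a ubiquitin ligase of the endoplasmic reticulum, stood at −0.14 (standard error 0.10). vcp.S, the ATPase that extracts proteins from that membrane, stood at 0.13 (standard error 0.12). In the non-sterol isoprenoid branch, which starts from the product of fdps.S, no probe set of 6 was under an unadjusted p of 0.05. At the same shares this says as little of the branch. ggps1.L, the geranylgeranyl diphosphate synthase gene, had a log2 difference of −0.16 (standard error 0.21), with opposite signs in the clutches. It stood at −0.49 and −0.71 in pairs 1 and 2 and at 0.29 in both pairs 3 and 4, an interaction of 0.89 (95% interval 0.40 to 1.37) with an adjusted p of 0.999 in limma. The dolichol synthesis gene dhdds.S had 0.16 (standard error 0.13), and its other copy dhdds.L had 0.01 (standard error 0.22). The prenyltransferase subunit gene fnta.S had −0.08 (standard error 0.18), and icmt.S was at the floor on all ethanol arrays and 3 cyclopamine arrays.

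**Figure D3:**
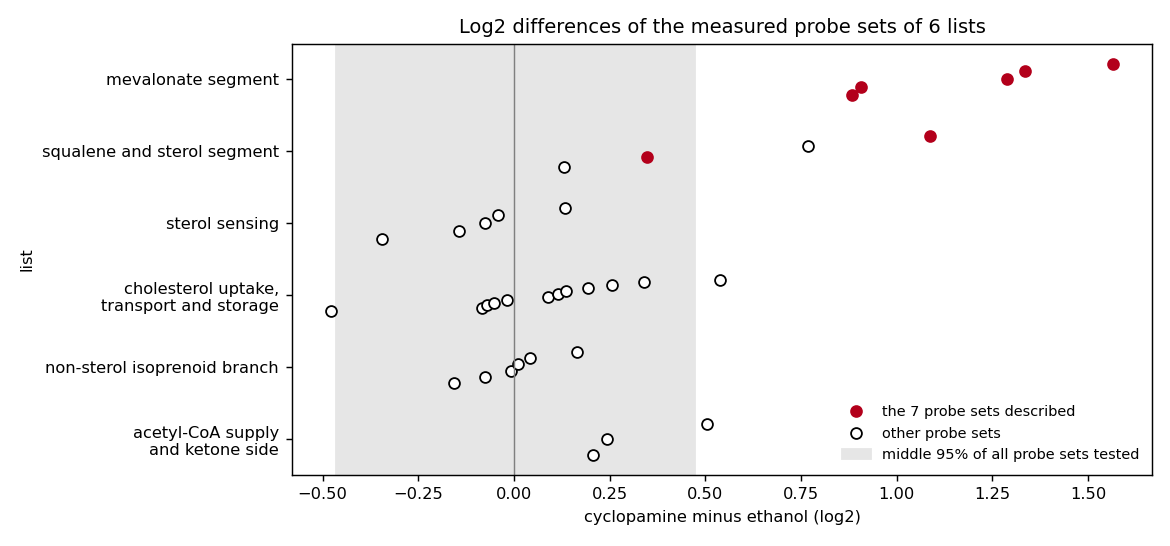
Log2 difference between cyclopamine and ethanol (horizontal axis) of each measured probe set of the 6 lists. Red points are the 7 probe sets described, open points the 28 others, and the grey band spans the middle 95% of all 13949 probe sets tested, −0.46 to 0.47; ebp.L at 0.77 is the open point farthest to the right.

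The clutches gave a comparison that the choice of genes did not use directly, though the same arrays entered both. Here and in the interaction below, each side is a single clutch. The p-values and intervals therefore measure the spread between pools and say nothing of other clutches. Which pairs of different clutches shared a day of exposure or an extraction batch is not given. A part of day or batch in the clutch differences therefore cannot be told apart. In ethanol, both clutch B arrays were below both clutch A arrays for all 7 probe sets, which was so for 20.9% of all probe sets tested. After cyclopamine this held for 4 of the 7, the 3 of hmgcs1.L and that of idi1.L, against 22.3% of all. With treatment as a covariate, all 7 lay below 0 in clutch B, as did 51.5% of all probe sets. None of the 7 passed an adjusted p of 0.05 in limma, a call made for 0.738% of all probe sets in that direction. At an unadjusted p under 0.05, 4 of the 7 (2 of the 5 genes) were lower in clutch B, against 11.9% of all. The 7 are not independent readings, as 3 are of hmgcs1.L and all belong to the same pathway. These counts are therefore only a description.

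The 3 hmgcs1.L probe sets had log2 differences between clutch B and clutch A of −0.53, −0.48 and −0.46, with adjusted p of 0.0939, 0.0877 and 0.0778 in limma. That of the third probe set was −0.62 and passed, at an adjusted p of 0.0492, when array medians were subtracted in place of quantile normalization. idi1.L had −0.31 (95% interval −0.57 to −0.05, adjusted p = 0.166 in limma). cyp51a1.L had −0.53 with a wide interval of −1.15 to 0.10, and −0.24 without ethanol array 3. fdps.S and dhcr7.S had −0.16 (−0.48 to 0.17) and −0.11 (−0.39 to 0.16). These depended on single arrays, with fdps.S at −0.026 without ethanol array 3 and −0.090 without ethanol array 2. dhcr7.S ranged from −0.029 without ethanol array 4 and −0.062 without ethanol array 1 to −0.18 and −0.19 without cyclopamine array 2 or 4. ebp.L, outside the genes chosen, had a clutch difference of −0.81 with an adjusted p of 0.0883 in limma.

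Whether the difference between cyclopamine and ethanol varied with the clutch was tested with an interaction term. 6 of the 7 probe sets had a larger log2 difference in clutch B than in clutch A, as did 52.3% of all. The low ethanol arrays of clutch B enter this count as well as the clutch comparison above. None of the 7 had an unadjusted p under 0.05 for the interaction in limma. cyp51a1.L had 0.67 in clutch A and 1.51 in clutch B, and the interval of this interaction ran from −0.29 to 1.97. Its interaction of 0.84 was 0.33 without ethanol array 3, when that of dhcr7.S was larger at 0.47, and 1.35 without ethanol array 4. fdps.S had 0.65 and 1.11 (interval of the interaction −0.12 to 1.03) and dhcr7.S had 0.17 and 0.52 (−0.17 to 0.87). The interaction of fdps.S was 0.46, and 0.24 without ethanol array 3, and that of dhcr7.S was 0.35, and 0.23 without ethanol array 4. idi1.L had 0.91 in clutch A and 0.90 in clutch B, with an interval of −0.59 to 0.58. Over all probe sets none passed an adjusted p of 0.05 for the interaction in limma (0%).

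**Figure D4:**
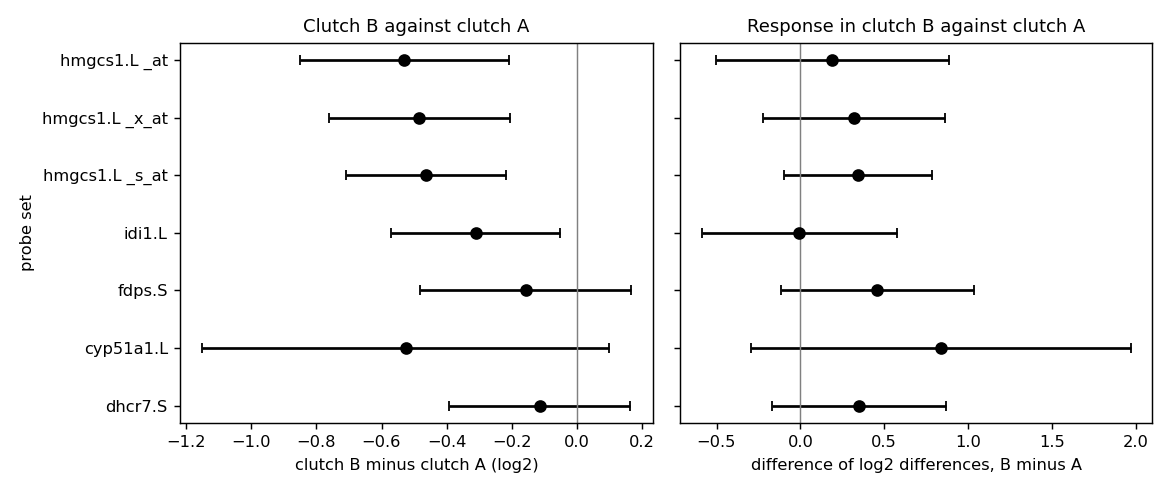
Left, log2 difference between clutch B and clutch A with treatment as a covariate; right, log2 response to cyclopamine in clutch B minus that in clutch A. Points are estimates and bars 95% intervals from limma for the 7 probe sets. Each side is a single clutch, so that the bars measure the spread between pools and not between clutches. All 7 points on the left lie below 0, and all 7 intervals on the right include 0.

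The spread between pools also differed between the groups. The SD over the cyclopamine arrays was below that over the ethanol arrays for 6 of the 7 probe sets, as it was for 47.5% of all. It was 0.043 against 0.29 for fdps.S, 0.11 against 0.70 for cyp51a1.L and 0.17 against 0.38 for the third probe set of hmgcs1.L. For idi1.L it was 0.23 against 0.21. The 6 include all probe sets of hmgcs1.L. As the genes were chosen on these same values, 6 of 7 is only a description. An SD over 4 arrays also holds the clutch difference within the group. Clutch B minus clutch A was −0.94 in ethanol and −0.11 after cyclopamine for cyp51a1.L, and −0.39 and 0.07 for fdps.S. With 4 arrays a group the SDs are themselves imprecise, and the difference between them was not tested.

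Among 8591 other probe sets with 1 symbol, the profile closest to that of the sterol enzymes was that of pebp1.2.L, a gene of the phosphatidylethanolamine-binding protein family. Likeness was measured as the root mean square difference, over the 8 arrays, between the log2 values of a probe set centred on their own mean and the mean centred profile of the 5 genes. It was 0.17 for pebp1.2.L, between 0.25 and 0.29 for the next 7, and 0.56 for the median probe set. The chosen probe sets themselves lay at 0.095 (fdps.S) to 0.35 (dhcr7.S). pebp1.2.L had log2 levels of 10.44, 10.45, 9.74 and 9.95 in ethanol and 10.74, 10.82, 10.70 and 10.71 after cyclopamine. Like fdps.S, it was lower in the clutch B ethanol arrays and close to even after cyclopamine. Its other copy, pebp1.2.S, was also among the 8, at 0.29.

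The other 6 were lpar6.L, a lysophosphatidic acid receptor gene, sort1.S, which encodes the sorting receptor sortilin, and bloc1s6.S of the BLOC-1 complex of lysosome-related organelles. atp6v0d1.L encodes a subunit of the vacuolar proton pump, lmnb3.L a nuclear lamin and myoz2.L a sarcomere protein. myoz2.L was at the floor on 3 of 4 ethanol arrays, so that its log2 difference understates any change. Their log2 differences between cyclopamine and ethanol ranged from 0.46 to 0.73, all below that of fdps.S (0.88) and above that of dhcr7.S (0.35). Each was higher in 4 of 4 pairs, as their choice by likeness favors. No probe set of the pathway lists was among the 8.

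**Figure D5:**
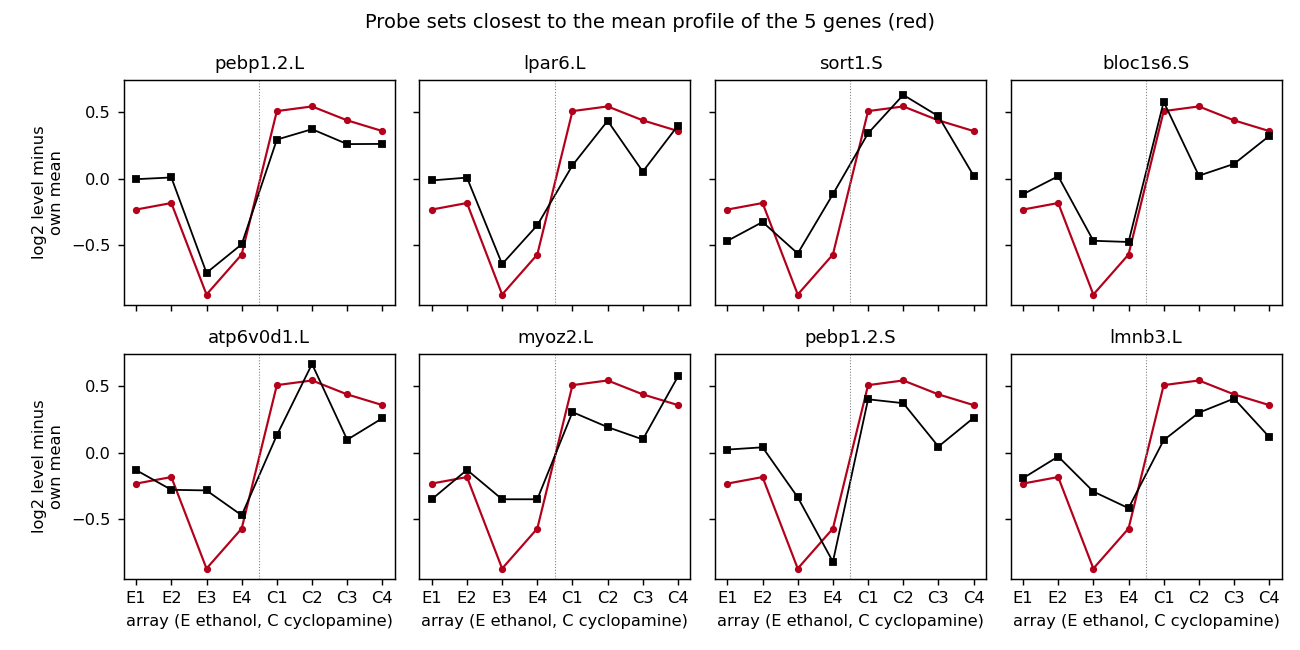
Log2 level minus its own mean over the 8 arrays (E, ethanol; C, cyclopamine; numbers are pairs) for the 8 probe sets closest to the mean profile of the 5 sterol enzyme genes, which is drawn in red in each panel. pebp1.2.L follows the dip on ethanol arrays 3 and 4, while myoz2.L and lmnb3.L are flatter over the ethanol arrays.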

How the data were processed

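The authors deposited linear intensities, 1 per probe set and array, from Affymetrix GeneChip *Xenopus laevis* Genome Arrays and called them normalized in the labels; the background correction, summarization and software were not given in sources used here. On every array the mean without the lowest and highest 2% was 500.07 to 500.08; medians were 191.6 to 221. After 120 of 15611 probe sets were left out as controls, values were quantile-normalized, floored and log2-transformed, and probe sets were kept apart. Symbols came from the array annotation (9304 probe sets with 1 symbol, 195 with several), of which 9227 had their gene ID in RefSeq assembly Xenopus_laevis_v10.1; no coordinates or sequences are given.

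Groups, clutches and pairs follow the sample titles and design text. Tests used limma 3.58.1 in R 4.3.3 across 13949 probe sets (Benjamini-Hochberg adjustment, threshold 0.05): treatment alone, clutch with treatment, and their interaction. The scripts were tested on simulated data. The same replicate number marks a shared clutch, exposure and extraction, and deviations from the group means correlated by 0.367, 0.507, 0.302 and −0.0802 within pairs 1 to 4. Across the pairs of clutch A they correlated by 0.184 and −0.182. In clutch B cyclopamine array 4 correlated by 0.508 with ethanol array 3, more than with its own partner, and cyclopamine array 3 by 0.269 with ethanol array 4. The number of arrays limits precision, and p-values measure the spread between pools. Alternatives were other scalings and floors, a filter, pair and clutch blocks, averaged probe sets, the methods' t-test and leaving out each array. The genes, lists and rules were chosen with earlier results of these data known. Named were all probe sets of the 5 genes, all of the mevalonate and sterol stages, up to 2 per direction of each other list by smallest p, and the 8 closest profiles; slc25a1.L falls outside this rule and was chosen after its values were seen, as were genes named only for an outlying array. Figures were drawn with matplotlib 3.10.9.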

Additional observations from a re-analysis of the deposited data

Results flagged for a closer look

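An array was far from the other 3 of its group, by Dixon's criterion, in 12 of 84 groups of 4 arrays examined. Chance flags about 1 in 20, but where the other 3 arrays are all at the floor, any value above it is flagged. That rate therefore does not hold for such groups, and an excess over chance is not shown by 12 of 84. Among the sterol enzymes the only flagged array was cyclopamine array 4 for cyp51a1.L, with a log2 level of 11.07 against 11.29 on each of the other 3. That difference is wide only against their narrow spread. In 4 probe sets clear of the floor the array was scarb2.L on cyclopamine array 2 (8.77 against 8.34 to 8.40), acat1.S on cyclopamine array 2 (9.04 against 8.19 to 8.31), pggt1b.S on ethanol array 3 (7.09 against 7.45 to 7.49), and cyp51a1.L as above. The other 8 cases had at least 2 of the other 3 arrays at the floor of 5.45. These were lbr.S on ethanol array 2 (5.65) and cyclopamine array 2 (6.17), soat2.S and icmt.S on cyclopamine array 2 (6.15 and 5.62), and apoa1.S on ethanol array 1 (5.52). stard4.L on ethanol array 2 (6.12) and cyclopamine array 1 (5.88) and myoz2.L on ethanol array 2 (5.67) complete them. Cyclopamine array 2 was the outlying array in 5 of the 12.

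Among the 35 probe sets of the pathway lists, 1 had both pairs of clutch A below 0 and both pairs of clutch B above 0. This was ggps1.L, whose log2 difference between cyclopamine and ethanol was higher in clutch B than in clutch A by 0.89. The interaction had an unadjusted p of 0.0040 and an adjusted p of 0.999 in limma, so that it did not pass the correction. The share of all probe sets with clutches in opposite directions was not counted, so that 1 of 35 cannot be called unusual.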

How the results depend on the processing

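The log2 differences of the 7 probe sets between cyclopamine and ethanol stayed above 0 under every alternative run. Much of this was fixed in advance. The groups of all 7 did not overlap, so that leaving out 1 array could not bring a difference below 0. The floors, the filter and the blocks left these differences unchanged. Elsewhere the differences moved by less than the SD between arrays of a group, pooled over ethanol and cyclopamine. For fdps.S and cyp51a1.L they moved by more than the SD of the cyclopamine arrays alone (0.75 and 0.76 at the lowest). The clutch differences of all 7 stayed below 0 and short of the threshold, except that of the third probe set of hmgcs1.L with array medians subtracted (adjusted p = 0.0492 in limma). The interaction of idi1.L, −0.01, was 0.030 with the values as deposited, 0.066 with array medians subtracted and −0.15 to 0.14 when 1 array was left out. That of the first probe set of hmgcs1.L was −0.014 without ethanol array 3, −0.0078 without ethanol array 2, and up to 0.39 with another array left out. The number of probe sets past the threshold between cyclopamine and ethanol, 2, was 1 with no floor or with the methods' t-test (783 at an unadjusted p under 0.05), 6 with the clutch as a block, and 1 to 2 with 1 array left out. With the replicate number as a block (pairs as fixed, or as random for the clutches) it was 2, and the clutch count was 196 in place of 181; the paired fits changed no call of the 7 probe sets between clutches or in the interaction. The clutch count was 27 with no floor, 63 with the floor at the 10th percentile and 16 to 66 with 1 array left out. Of the other pathway probe sets, the 2 that were higher at an unadjusted p under 0.05 became 1 with array medians subtracted or with the floor at the 10th percentile, and 1 to 4 with 1 array left out; the 1 that was lower became 1 to 2. With the replicate block the 2 were acly.S and ebp.L in place of acly.S and npc2.S. No interaction count differed from 0. For each count that moved, the cause was not tested. lbr.S and icmt.S, at the floor on most arrays, have no readable difference.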
